A study of Rattus norvegicus with 6 samples.

Results

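The Groucho corepressors of the Tle family were followed in RBL-2H3 cells given a PPARγ agonist. The 6 members, Tle1, Tle2, Tle3, Tle4, Aes and Tle6, were taken by name from the 22601 genes of the deposited table. The family was selected on the PIO against control p-value of Tle3, one of the smallest of the table, so the response of Tle3 is given as a description and not as a test. RBL-2H3, a rat basophilic leukemia line labelled wild type, often stands in for mast cells in the laboratory. It was grown in serum-supplemented medium, and 3 control libraries were set against 3 libraries from cells given PIO at 10 µM for 6 h. For the controls neither a vehicle nor a time is recorded here, and effects of either cannot be told apart from those of PIO. Whether replicates were separate cultures is not in the labels, and the p-values therefore reflect the spread among these libraries alone, which may be technical.

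Groucho proteins do not bind DNA themselves. They are brought to genes by transcription factors such as the Runx, Hes and Tcf/Lef proteins, and they recruit histone deacetylases that silence the gene. The Runx and Hes factors bind a propeller of WD repeats at the C-terminal end of Groucho proteins. Tle1 to Tle4 are the long members, which assemble through their N-terminal end. Aes (Tle5 in current nomenclature) is a short member that keeps the N-terminal part and lacks the WD repeats, and it can oppose the long ones. Tle6 is a divergent member best known from the egg. In adipocytes, Tle3 is known both as a target and as a partner of PPARγ.

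Depth was 14048202 to 15084729 reads per library, with 9824 to 9876 genes reaching 1 FPKM. Reads differed beyond counting noise in every pair of libraries, with chi-square values per gene of 2.73 to 8.6. The smallest value, 2.73, was between control replicate 1 and PIO replicate 1, and control replicates 1 and 3 had 6.1. The line showed its labelled identity: 13 of 16 mast cell and basophil markers had at least 1 FPKM, summing to 4914 to 5136 FPKM in control and 4941 to 5076 FPKM with PIO, with Mcpt1 and Tpsab1 listed at 0. Of the markers of other cells, Col3a1 and Cd68 alone had a mean of at least 1 FPKM. Macrophage markers (1 of 8 at 1 FPKM or more) summed to 1.69 to 1.98 FPKM in control and 1.77 to 2.09 FPKM with PIO, with C1qa, C1qb and Marco at 0. T and B cell markers (0 of 8) summed to 1.41 to 1.58 FPKM in control and 0.844 to 1.47 FPKM with PIO, with Cd3d, Cd79b and Cd8a at 0. Fibroblast and adipocyte markers (1 of 8) summed to 5.12 to 5.61 FPKM in control and 4.72 to 4.99 FPKM with PIO, with Dcn and Lep at 0. Nearly all of that sum was the collagen gene Col3a1, at 5.26 ± 0.279 FPKM for control against 4.75 ± 0.156 FPKM for PIO (SD, n = 3), whose groups did not overlap (limma adjusted p = 0.460). PIO lay entirely below control for 8.09% of genes tested. Their part in the results was not tested.

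The 6 genes fell into an expressed and a barely detected set. Aes stood at a mean of 326 FPKM over the 6 libraries, a level above that of 98.7% of the genes above 0. Tle4 followed at 23.7 FPKM (76.5th percentile) and Tle3 at 6.48 FPKM (53.3rd percentile). FPKM is a level per length, so these levels can be compared between genes. The values of Aes, Tle4 and Tle3 did not overlap over the 6 libraries. In bulk RNA, a change in how many cells express a gene and a change in RNA per cell cannot be told apart. Tle2 had a mean of 0.172 FPKM, and Tle6 and Tle1 had 0.0329 and 0.0326 FPKM, which did not differ beyond their spread. The 3 low genes were under the minimum mean of 0.5 FPKM and were not tested. In GRCr8, the barely detected Tle6 and Tle2 and the abundant Aes are consecutive genes on chromosome 7, with Gna11, a G protein gene at 25.8 FPKM, next to Aes.

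**Figure D1:**
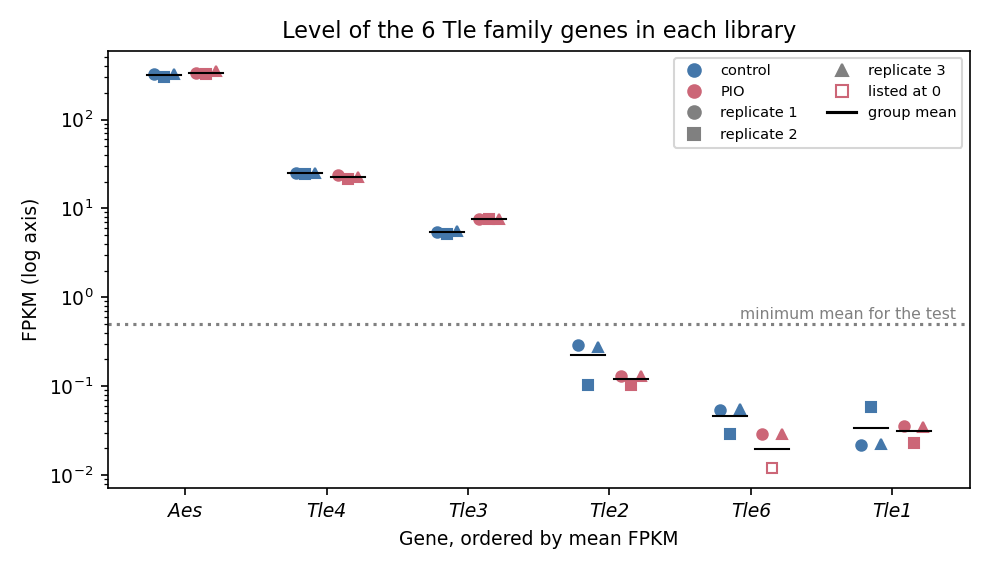
FPKM of the 6 members on a log axis, 1 point per library (3 control and 3 PIO, shape by replicate), with black bars for the group means and a dotted line at the minimum mean of 0.5 FPKM for the test. Aes, Tle4 and Tle3 lie above the line in all 6 libraries, Tle2, Tle6 and Tle1 below it, and the open symbol is a value listed at 0.

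The promoters of Aes, Tle4 and Tle3, the 3 members with a mean of at least 0.5 FPKM, are shown because these genes differed widely in level. Each is the 250 bases before the RefSeq transcription start in the rat assembly GRCr8, written 5′ to 3′ on the strand of the gene. Capitals mark the motifs GGGCGG, the GC box, and AGGTCA, the half-site of nuclear receptors such as PPARγ, on either strand.
Tle3, chr8:70753527-70753776, plus strand: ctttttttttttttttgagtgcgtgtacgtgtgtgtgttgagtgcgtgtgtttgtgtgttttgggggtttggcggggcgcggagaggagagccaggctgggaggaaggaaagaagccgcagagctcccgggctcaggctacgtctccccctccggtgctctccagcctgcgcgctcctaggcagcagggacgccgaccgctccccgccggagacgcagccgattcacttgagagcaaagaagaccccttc
Tle4, chr1:221222827-221223076, minus strand: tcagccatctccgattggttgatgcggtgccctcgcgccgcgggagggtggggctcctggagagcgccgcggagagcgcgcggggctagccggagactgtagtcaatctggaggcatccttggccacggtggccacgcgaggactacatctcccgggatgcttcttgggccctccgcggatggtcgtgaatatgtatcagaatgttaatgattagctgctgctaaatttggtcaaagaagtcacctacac
Aes, chr7:8800923-8801172, minus strand: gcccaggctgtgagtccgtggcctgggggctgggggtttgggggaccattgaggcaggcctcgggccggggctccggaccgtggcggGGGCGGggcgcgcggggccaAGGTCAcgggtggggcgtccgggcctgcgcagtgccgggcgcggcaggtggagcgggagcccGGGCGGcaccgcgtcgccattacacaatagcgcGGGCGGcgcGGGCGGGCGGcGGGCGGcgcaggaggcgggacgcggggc
The Aes window held 6 matches of the GC box, of which 2 overlap each other, and 1 AGGTCA. Its GC content was 80.8%, higher than in 99.1% of 33469 rat promoter windows. The Tle3 and Tle4 windows were alike in GC content, at 60.8% and 59.6%, against a median of 51.2%, and held neither motif. The full direct repeat, AGGTCA at each end of 1 free base, to which PPARγ binds with its partner RXR, was in none of the 3 windows. Over all promoter windows GGGCGG was present in 30.5%, AGGTCA in 14.1% and the direct repeat in 0.0508%, each searched on both strands. The barely detected members, whose windows are not printed, did not all lack the GC box. The windows of Tle1 and Tle2 each held 2 matches, at 74.8% and 62.4% GC, and those of Tle6 held at most 1. A tie between motif and level was not tested. Such matches describe the letters of this window only.

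Tle3 had a higher level in the PIO libraries, without passing the limma threshold over the whole table. Its level was 5.47, 5.17 and 5.50 FPKM in control replicates 1 to 3 and 7.52, 7.64 and 7.59 FPKM in PIO replicates 1 to 3. All 3 PIO libraries lay above all 3 control libraries, and the gap between the groups was wider than the range within either. The mean went from 5.38 ± 0.184 to 7.58 ± 0.0612 FPKM (SD, n = 3 per group), an increase of 41.0%. Behind these values stood 499, 441 and 492 reads for the controls and 639, 662 and 647 reads for PIO. Pooled by group, the rate of reads per library total was 1.41 times that of control, with a 95% interval of 1.32 to 1.51 from counting error alone (exact binomial). On the log2(FPKM + 0.5) scale the fold change was 0.46 (SE 0.06), which 69 of the 10410 genes tested, Tle3 included, reached or exceeded (0.663%). It ranked 6 by p in the limma fit, with an adjusted p = 0.0726, and this is the value that led to the choice of the family.

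The replicates of Tle3 were closer to each other than reads alone would place them. The coefficient of variation was 0.807% over the PIO libraries and 3.42% over the control libraries, whereas counting error alone is 3.92% and 4.58% at these read numbers. The residual SD of Tle3 on the log2 scale was 0.0331, against a median of 0.0893 over 3088 genes within 2 times its level, and 3.63% of those genes had a smaller one. The p-value on which the family was selected favours a gene with a small spread, so this position is a description and supports nothing. The counting interval above does not use this spread. Limma draws each gene's spread towards that of genes of like level, which widens the SE of Tle3, and limma-voom on the recovered reads gave an adjusted p = 0.00906 (log2 fold change 0.49). With a robust variance fit (limma adjusted p = 0.04998) or sample weights (0.0374), lowest for control replicate 3 at 0.490, Tle3 also passed. These fits use the values on which the family was selected, so such a pass is a description and not a test.

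Tle4, the most abundant long member, had lower values with PIO and did not pass. Its level was 25.1, 24.5 and 24.8 FPKM in control replicates 1 to 3 and 23.9, 21.5 and 22.7 FPKM in PIO replicates 1 to 3. The groups did not overlap, and PIO replicate 1, at 23.9 FPKM, came nearest to the lowest control value, 24.5 FPKM. The mean went from 24.8 ± 0.285 to 22.7 ± 1.21 FPKM (SD, n = 3), or -8.55%. The log2 fold change was -0.13 (SE 0.05, limma adjusted p = 0.371), and without PIO replicate 2 the value was -0.089. The pooled read rate was 0.914 times that of control, with a counting interval of 0.878 to 0.951.

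Aes, the short member, held 323.5, 301.4 and 324.7 FPKM in control replicates 1 to 3 and 331.6, 321.8 and 355.1 FPKM in PIO replicates 1 to 3. The groups overlapped, since PIO replicate 2 lay below control replicates 1 and 3, and PIO replicate 3 stood highest. The mean went from 317 ± 13.1 to 336 ± 17.1 FPKM (SD, n = 3), or 6.20% higher, and did not pass (log2 fold change 0.09, SE 0.05, limma adjusted p = 0.476). The value was 0.046 without PIO replicate 3 and 0.051 without control replicate 2. At 4744 to 5581 reads per library, counting error was 1.37% to 1.39%, under the observed variation of 4.15% in control and 5.08% with PIO, so depth did not set the precision here.

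Over the whole table limma called 4 genes, or 0.0384% of those tested, all of them higher. These were Cpt1a, the gate of fatty acid entry into mitochondria (6.05 ± 0.388 to 12.5 ± 0.204 FPKM, SD, n = 3), Hmox1, the inducible heme oxygenase (155 ± 1.84 to 194 ± 4.71 FPKM), and the placeholder genes LOC100912534 and LOC102556337. No member of the family was among them in the limma test, and limma-voom called 1 member, Tle3. An unadjusted limma p under 0.05 was found for 2 members (Tle3 and Tle4) and for 1302 of all 10410 genes tested. The PIO libraries lay entirely above control for 10.5% of genes tested and entirely below for 8.09%. Tle3 fell in the first class and Tle4 in the second, and with these shares neither class sets a gene apart.

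**Figure D2:**
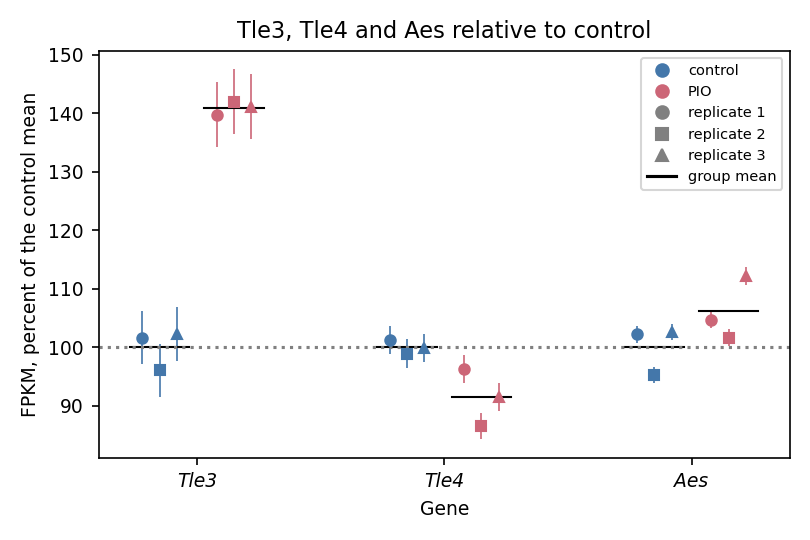
FPKM of Tle3, Tle4 and Aes as a percent of each gene's control mean, 1 point per library with an error bar of 1 SD from counting error alone, and black bars for the group means (n = 3). The vertical axis does not start at 0. The mean of Tle3 with PIO is 41.0% above control and no point overlaps, while the means of Tle4 and Aes with PIO differ from control by -8.55% and 6.20%.

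**Figure D3:**
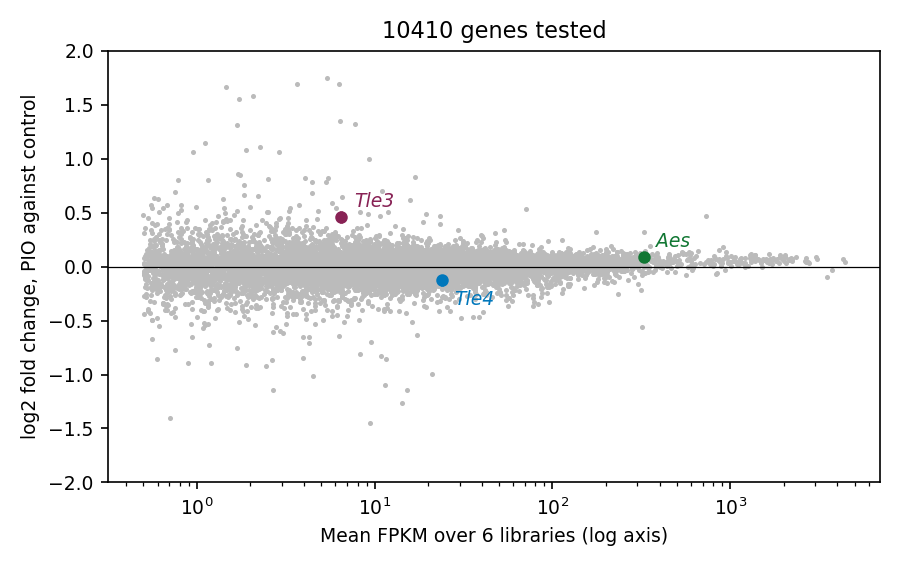
Log2 fold change of PIO against control by mean FPKM (log axis) for the 10410 genes tested, with SE bars for Tle3, Tle4 and Aes that are about the size of the symbols. Tle3 at 0.46 lies near the upper edge of genes of its level, and Tle4 (-0.13) and Aes (0.09) lie within the bulk.

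Tle2 was barely detected, with 12, 4 and 11 reads in the controls and 5, 4 and 5 reads in the PIO libraries. These correspond to 0.292, 0.104 and 0.273 FPKM and to 0.131, 0.103 and 0.130 FPKM. The groups overlapped, because control replicate 2 was as low as the PIO libraries. The pooled rate was 0.537 times that of control with a counting interval of 0.260 to 1.06, so a difference was not detectable at this depth. Tle1 had 2, 5 and 2 reads in control and 3, 2 and 3 reads with PIO, a pooled ratio of 0.921 (0.309 to 2.69). That interval is too wide to tell a large change from none. Tle6 had 2, 1 and 2 reads in control and 1, 0 and 1 reads with PIO, under the floor of 3 reads in each library, so no fold is given.

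Tle3 made up a larger part of the long-member FPKM in the PIO libraries, while the sums of the long members overlapped between the groups. Tle3 equalled 21.8%, 21.1% and 22.2% of the Tle4 FPKM in control replicates 1 to 3 and 31.5%, 35.6% and 33.5% in PIO replicates 1 to 3. The log2 ratio of Tle3 to Tle4 was 0.59 higher with PIO (SE 0.05 over libraries), of which the change of Tle3 makes up 0.46. Relative to Aes, Tle3 went from 1.70% ± 0.0131 to 2.26% ± 0.118 (SD, n = 3), a log2 difference of 0.37 (SE 0.04). No ratio of one group overlapped the other in either pair. These ratios contain Tle3, which was chosen for its response, and they are a description. With 3 libraries a side, the smallest p of an exact permutation test is 0.1.

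Summed over Tle1 to Tle4, the long members held 30.9, 29.9 and 30.6 FPKM in control and 31.6, 29.2 and 30.5 FPKM with PIO. The group means, 30.4 ± 0.521 and 30.4 ± 1.17 FPKM (SD, n = 3), differed by -0.0209 FPKM, less than the spread of either group. Tle3 made up 17.7% ± 0.351 of that sum in control and 25.0% ± 1.16 with PIO, and Tle4 81.5% ± 0.589 and 74.5% ± 1.11. Over all 6 members Aes alone held 91.2% ± 0.211 of the FPKM in control and 91.7% ± 0.398 with PIO.

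**Figure D4:**
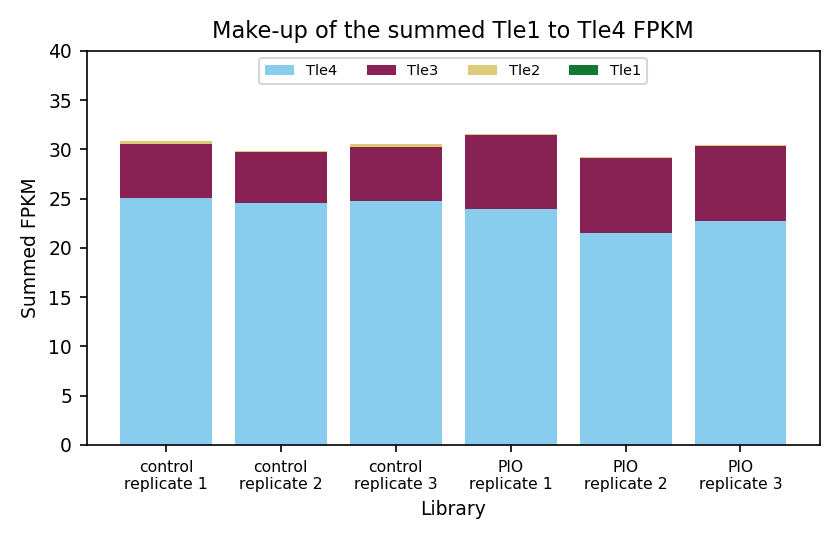
Stacked bars of the FPKM of Tle4, Tle3, Tle2 and Tle1 in each of the 6 libraries. The height of the stack stays between 29.2 and 31.6 FPKM, while the Tle3 part is larger in the 3 PIO libraries (7.52 to 7.64 FPKM) than in the 3 controls (5.17 to 5.50 FPKM).

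The genes whose profile over the 6 libraries was most like that of Tle3 were Psmg3, a proteasome assembly chaperone gene (Pearson r = 0.990), Tmem9b (0.989), Hdgfrp2, of the hepatoma-derived growth factor family (0.988), Ube2e3, a ubiquitin-conjugating enzyme gene (0.988), and Fcgr2a, a low-affinity IgG receptor gene (0.988). They were ranked among 9137 genes with an established symbol and a mean of at least 1 FPKM, on log2(FPKM + 0.5). Since control and PIO libraries form separate clusters in Tle3, such a value mostly reflects a shared gap between the groups. Their log2 fold changes, from 0.11 for Ube2e3 to 0.23 for Fcgr2a, were smaller than that of Tle3, which was chosen for its response. None of the 5 passed (limma adjusted p from 0.210 for Psmg3 to 0.387 for Ube2e3). Psmg3, for example, went from 30.3 ± 0.527 to 35.4 ± 0.541 FPKM, and Fcgr2a from 9.40 ± 0.229 to 11.1 ± 0.247 FPKM (SD, n = 3). Tle4 and Aes had r of -0.819 and 0.670 with Tle3.

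Of 24 transcription factors of the partner list, 7 were abundant enough to test and 9 were listed at 0 in all libraries. None passed in limma or limma-voom. An unadjusted limma p under 0.05 was found for 3 of the 7, against 1302 of all 10410 genes tested. The fold change was positive for 5 and negative for 2, and its median was 0.06 (log2) against 0.0094 over all genes tested. The most abundant were Myc, a growth regulator that is not a classical Groucho partner, and the partners Runx3, Runx1 and Hes6. Runx3, a Runx factor of blood cells, stood at 40.7, 43.2 and 42.2 FPKM in control and 44.1, 46.1 and 45.9 FPKM with PIO (0.11 on the log2 scale, limma adjusted p = 0.358). Its groups did not overlap, with PIO higher, as for 10.5% of genes tested. Runx1, the Runx factor of blood stem cells, had 18.6 ± 0.370 and 19.3 ± 0.535 FPKM (SD, n = 3; 0.06, limma adjusted p = 0.603). Hes6, a Hes-family factor, had 7.54 ± 0.796 and 8.76 ± 0.524 FPKM (0.21, limma adjusted p = 0.382), and its groups overlapped. Myc had 74.6 ± 3.00 and 68.3 ± 2.36 FPKM (-0.13, limma adjusted p = 0.340). The groups of Myc did not overlap either, with PIO lower, as for 8.09% of genes tested. The Tcf/Lef partners were low, with Tcf7l2 at a mean of 0.822 FPKM, Lef1 at 0.665 FPKM and Tcf7 at 0.0404 FPKM, and Hes1, the classical Hes partner, was at 0.179 FPKM.

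Of 12 genes for Groucho regulators and histone deacetylases, 11 were in the table, and all 11 were tested. None passed in limma or limma-voom, and 7 were higher and 4 lower (median 0.0088). An unadjusted limma p under 0.05 was found for 2 of the 11, against 1302 of all 10410 genes tested. Hdac1, the deacetylase that Groucho recruits, had 150 ± 3.73 and 156 ± 4.24 FPKM (SD, n = 3; 0.06 on the log2 scale, limma adjusted p = 0.5001). Csnk2b and Csnk2a1, subunits of casein kinase 2, which phosphorylates Groucho, had 191 ± 3.41 and 192 ± 5.57 FPKM (limma adjusted p = 0.931) and 49.4 ± 2.37 and 49.6 ± 1.51 FPKM (limma adjusted p = 0.973). Cdk1, the mitotic kinase, had 96.9 ± 0.557 and 103 ± 3.07 FPKM (0.08, limma adjusted p = 0.379), with no overlap. Xiap, a ubiquitin ligase that acts on Groucho proteins, lies outside the rule for named genes and was chosen after its values were seen. It stood at 3.23, 3.93 and 3.58 FPKM in control and 3.04, 2.32 and 2.52 FPKM with PIO, without overlap, and did not pass (-0.39, limma adjusted p = 0.304). The PIO libraries lay entirely above control, as in Cdk1, for 10.5% of genes tested, and entirely below, as in Xiap, for 8.09%.

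Wnt signalling converges on Tcf/Lef factors, which Groucho holds silent until β-catenin displaces it. Of 22 components 15 were tested. None passed in limma or limma-voom, and 9 were higher and 6 lower (median 0.03). An unadjusted limma p under 0.05 was found for 3 of the 15, against 1302 of all 10410 genes tested. Ctnnb1, which encodes β-catenin, had 41.2 ± 0.135 and 40.3 ± 0.453 FPKM (SD, n = 3; -0.03 on the log2 scale, limma adjusted p = 0.731). Csnk1a1, a kinase that marks β-catenin for breakdown, had 102 ± 8.47 and 89.5 ± 5.35 FPKM (-0.19, limma adjusted p = 0.353). Gsk3a, another such kinase, had 63.4 ± 1.73 and 68.0 ± 0.983 FPKM (0.10, limma adjusted p = 0.353). Pygo2, a β-catenin coactivator, had 20.1 ± 0.995 and 22.9 ± 0.426 FPKM (0.19, limma adjusted p = 0.297). Groups did not overlap for Gsk3a, Pygo2 and Dvl1, with PIO higher (10.5% of genes tested), and for Ctnnb1, with PIO lower (8.09%). Dvl1 lies outside the rule for named genes and was chosen after its values were seen. Axin2, a common readout of Wnt activity, was listed at 0 in all 6 libraries. A single gene does not settle Wnt activity, which was not tested.

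Notch signalling induces the Hes and Hey factors that recruit Groucho. Of 22 components 13 were tested. None passed in limma or limma-voom, and 7 were higher and 6 lower (median 0.02). An unadjusted limma p under 0.05 was found for 1 of the 13, against 1302 of all 10410 genes tested. The most abundant were the γ-secretase genes Psenen (116 ± 9.26 and 125 ± 10.4 FPKM, SD, n = 3), Aph1a (65.1 ± 1.26 and 66.8 ± 0.706 FPKM), Psen2 (52.2 ± 1.22 and 49.8 ± 1.17 FPKM) and Ncstn (46.0 ± 2.48 and 48.7 ± 0.907 FPKM). Their limma adjusted p lay between 0.479 for Psen2 and 0.657 for Aph1a. The log2 fold changes of all tested members of the 4 lists lay between -0.39 and 0.21, all smaller in size than that of Tle3. Tle3 was chosen for its response, and 0.663% of all genes tested reached or exceeded its fold change, so this comparison supports nothing.

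**Figure D5:**
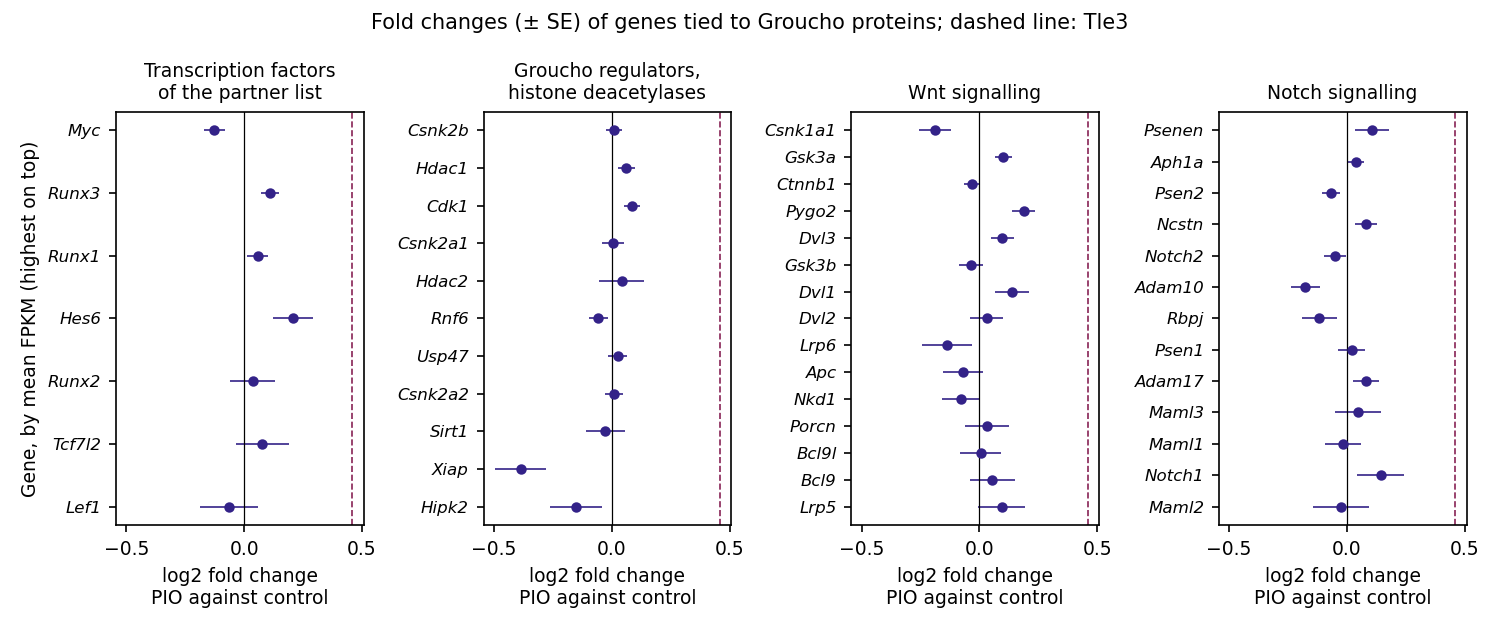
Log2 fold changes of PIO against control with SE bars (limma, n = 3 per group) for the tested members of the 4 lists, ordered by mean FPKM, with a dashed line at the 0.46 of Tle3. All points lie between -0.39 (Xiap) and 0.21 (Hes6), left of that line, which 0.663% of all genes tested reached or exceeded.

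Where a gene is listed at 0, its reads may also have been assigned elsewhere. In GRCr8 the non-coding gene LOC102551666 overlaps one end of Tle3, and without a stated use of strand its reads cannot be told apart from those of Tle3 there.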

How the data were processed

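RNA-seq was run on 6 libraries of RBL-2H3 cells. The authors deposited 1 table of FPKM, in which fragments are scaled to gene length and to library depth. Per the submitters' processing notes, reads were trimmed, aligned or counted with tools that include HISAT2 2.2.1.0, Cufflinks and HTSeq. The roles of the tools, and whether strand was used, are not given in the sources used here. The same notes name GRCh38, a human build, while the gene identifiers are those of the rat, so no coordinates were taken from the table.

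Each FPKM value was a whole multiple of the value of 1 read. Library totals and gene lengths that made all 6 values of a gene whole, within 0.001 of a read, were found for 15427 of 15429 genes above 0 (99.99%). These reads give the depth and the floor of 3 reads; without molecular identifiers, intervals and floors hold for counting error only. Of the GeneIDs, 91.3% matched the RefSeq table of the rat assembly GRCr8, and all 6 members had a promoter entry there.

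The limma test (3.58.1, R 4.3.3) was run on log2(FPKM + 0.5) for the 10410 genes whose mean reached 0.5 FPKM. It was two-sided, had no term but group, let the variance follow the mean, and used a Benjamini-Hochberg threshold of 0.05 over all of them. Fold changes of low genes come out too small on this scale. The code was tested on simulated reads for PIO against control (10351 genes). Of genes made 1.4-fold higher 98% were called, of genes made 2-fold higher 100%, and of unchanged genes 0.128%. Of genes lowered to 0.714 times 92% were called, and to 0.5 times 98%. Every simulated gene had the same dispersion, which genes in the real libraries need not share. These shares therefore check the code and do not give the power in these libraries. The named genes are the 6 members, the 5 genes most like Tle3 in Pearson correlation, the 4 most abundant members of each partner list with any that pass, and genes past the threshold. Any other gene named was chosen after its values were seen. The members, lists and tests were chosen with earlier results of these data known. Both groups carry replicate numbers 1 to 3, which were checked for pairing. No member has more than 1 row in the table, so summing duplicate rows gives the same values and was not run.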

Additional observations from a re-analysis of the deposited data

How the results depend on the processing

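The log2 fold changes of Tle3, Tle4 and Aes kept their sign under all 19 alternatives. These were pseudocounts of 0.1 and 1, no filter, filters at 1 and at 5 FPKM, scaling by TPM, quantiles or median of ratios, a robust fit, a fit with no variance trend, sample weights, a replicate block, limma-voom on the recovered reads, and leaving out 1 library at a time. Tle3 lay between 0.43 and 0.49 and passed under 3 of them, the robust fit (0.46, limma adjusted p = 0.04998), sample weights (0.47, limma adjusted p = 0.0374) and limma-voom (0.49, adjusted p = 0.00906). The cause was not tested, and since Tle3 was chosen for its p-value, these passes are a description and not a test. Over the 19 its adjusted p lay between 0.00906 and 0.357, and with 1 library left out the fold change was 0.43 to 0.48 (limma adjusted p from 0.0969 to 0.357). Tle4 and Aes passed under none, with -0.16 to -0.089 and 0.046 to 0.12 when 1 library was left out. The difference in log2 ratio of Tle3 to Tle4 (0.59) was 0.54 to 0.63 and that to Aes (0.37) 0.34 to 0.41 with 1 library left out, and both moved by less than 1 SD under the other scalings and pseudocounts. Scaling a whole library cancels in such a ratio apart from the pseudocount, so median of ratios and TPM could hardly move it. The 4 lists had 0 genes called under every alternative run. The number of genes called over the table, 4, became 1 without a filter, 2 without a variance trend, 3 with a filter at 5 FPKM and 5 with a pseudocount of 0.1. It was 6 with sample weights, 7 with the robust fit and 7 with limma-voom, the 3 settings under which Tle3 passed. With 1 library left out it was 2 to 4, 2 without control replicate 1. With the replicate block it was 3, and Tle3 had a limma adjusted p = 0.244. Deviations of same-numbered libraries correlated at -0.07, 0.03 and 0.08, within the -0.09 to 0.08 of differently numbered ones. No shared effect was detected. Such a check cannot exclude that same-numbered libraries were handled together, and the labels do not say. Depth limits Tle1, Tle2 and Tle6, with at most 12 reads per library.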
